A study of Mus musculus with 12 samples.

Results

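The genes described here are the matrix metalloproteinases (Mmp), the ADAMTS proteases (Adamts) and the tissue inhibitors of metalloproteinases (Timp), in RNA sequencing values of mouse heart. They were chosen by symbol alone: every gene of the table named Mmp, Adamts or Timp followed by a number was taken, which gave 46 of 34714 genes, with 23 Mmp, 19 Adamts and 4 Timp genes. The study asked, in a melanoma mouse model, how leflunomide acts on the heart toxicity of an antibody to PD-1, an immune checkpoint receptor. The groups were aPD1_veh (antibody to PD-1, with veh read as vehicle, 4 libraries), aPD1_lef (antibody to PD-1 with leflunomide, 4 libraries) and IgG_lef (control IgG with leflunomide, 3 libraries of the 4 labelled). The labels give no strain, sex, age, dose or time, and do not say whether the hearts came from mice with tumours or whether each library is a separate animal, so p-values measure the spread between these libraries. No group with control IgG and vehicle was analysed here, and aPD1_veh and IgG_lef differ in both antibody and drug.

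Metalloproteinases are zinc enzymes, mostly secreted, that cut collagens, proteoglycans and other proteins of the extracellular matrix. They are made as inactive precursors, and the TIMP proteins bind their active sites to block them. In the heart both are made mainly by fibroblasts, other stromal cells and infiltrating leukocytes, and they are known for their part in the remodelling of the matrix after injury. ADAMTS proteases are zinc metalloproteinases as well but carry thrombospondin repeats, and many of them trim procollagens or cut large proteoglycans such as versican and aggrecan.

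Values are given as FPKM, fragments mapped to a gene divided by its transcript length and by the depth of the library, a unit inferred from the values. On that reading levels are per length, and any comparison of level between genes rests on the inferred unit. Library totals ran from 393494 to 413010 FPKM in aPD1_lef, from 441935 to 465511 in aPD1_veh and from 413628 to 440748 in IgG_lef, and the number of reads is unknown. Markers of cardiomyocytes summed to between 7926 and 31279 FPKM over 7 genes, so every library carried the markers of the labelled tissue. The lowest sum was that of aPD1_lef replicate 4, which also stood apart in its correlation with its own group (0.91 to 0.95, against 0.980 to 0.992 for pairs of libraries in the other groups). Results that rest on it are given with and without it. Myl7, an atrial myosin chain, was above 10 FPKM in aPD1_lef replicates 1 and 2 and in IgG_lef replicate 2.

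Of the 46 genes, 22 reached 1 FPKM in at least 4 libraries and were tested with 12005 genes in all (10 Mmp, 8 Adamts and 4 Timp). The other 24 were too low for the test, and 5 of these (Mmp1a, Mmp1b, Mmp7, Mmp10 and Mmp20) were listed at 0 in all 11 libraries. The highest mean values over all libraries were those of Timp3 (119 FPKM), Timp1 (84.0 FPKM), Timp2 (60.1 FPKM) and Mmp2 (48.4 FPKM). Thus 3 of the 4 members with the highest values were inhibitors. Timp1 ranked second because of a single library. Of the tested members, Mmp9 reached 1 FPKM only in the 4 aPD1_veh libraries and Adamts8 only in the 4 aPD1_lef libraries, so each entered the test through the group where it was high. For both, the adjusted p over all genes above 0, with no filter, is given beside the test, and counts and medians over the tested members, which include them, are descriptions only.

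In aPD1_lef against aPD1_veh, 10 of the 22 tested members were higher and 3 were lower at an adjusted p under 0.05, and 9 did not pass. Over all genes tested 32.4% passed, 18.2% higher and 14.3% lower. The median log2 change of the tested members was 0.59, against 0.04 over all genes tested. The groups did not overlap, with aPD1_lef the higher, for 9 members, and with aPD1_lef the lower for 2, where 20.6% and 15.5% of all genes did so. Without aPD1_lef replicate 4, 10 members were higher and 2 were lower, with 19.7% of all genes tested higher and 14.4% lower.

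**Figure D1:**
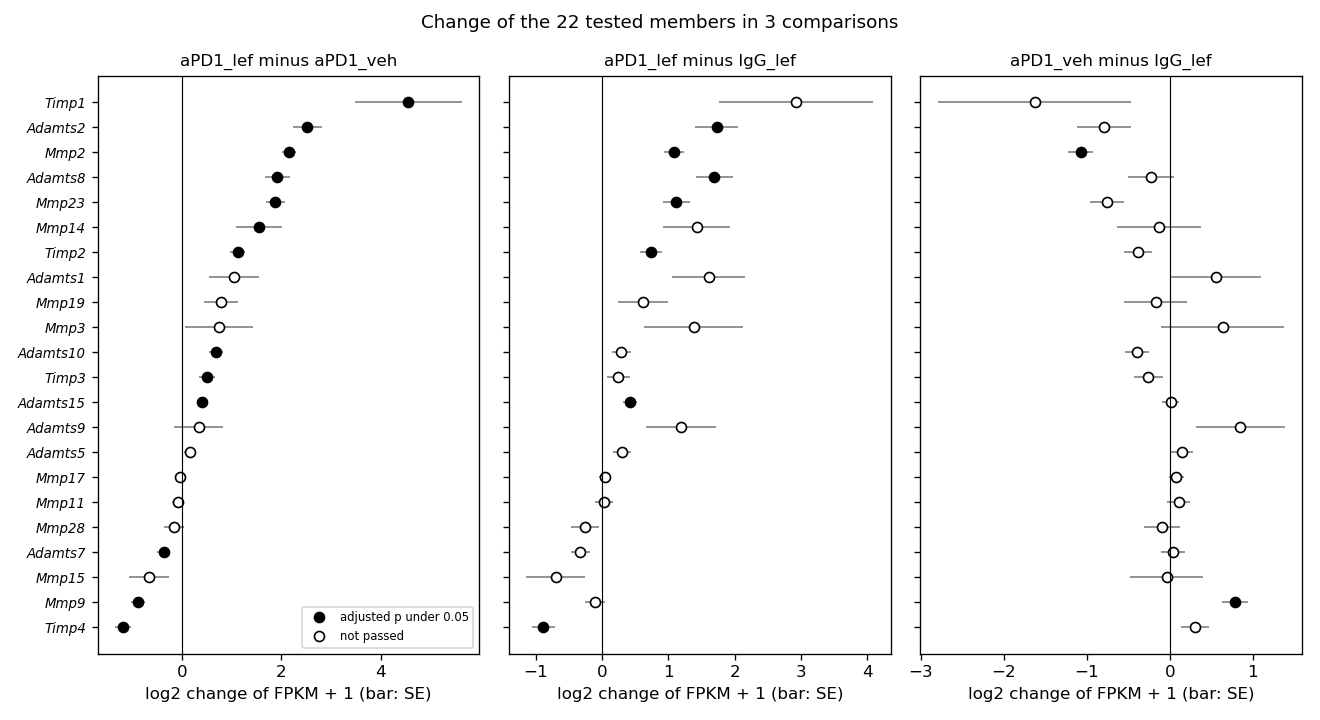
Log2 change of log2(FPKM + 1) for each of the 22 tested members in the 3 comparisons, with 1 row for each gene and the bar giving the standard error. Filled points have an adjusted p under 0.05: 13 in aPD1_lef against aPD1_veh, 7 in aPD1_lef against IgG_lef and 2 in aPD1_veh against IgG_lef.

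All 4 inhibitors passed the test in aPD1_lef against aPD1_veh, and they did not move alike. Timp1, an inhibitor that many cells induce on stimulation, stood at 35.7, 19.1, 103 and 690.3 FPKM in aPD1_lef replicates 1 to 4, at 5.66, 2.72, 2.35 and 1.09 in aPD1_veh, and at 2.24, 6.89 and 54.3 in IgG_lef. The lowest aPD1_lef library lay above the highest aPD1_veh library, and the IgG_lef libraries spanned both. The mean was 212 ± 321 FPKM (SD, n = 4) in aPD1_lef and 2.95 ± 1.93 (n = 4) in aPD1_veh, a ratio of 71.8 that became 17.9 without aPD1_lef replicate 4. Its log2 change was 4.56 ± 1.08 (SE, adjusted p = 0.0112 by limma), and 3.55 without that library (adjusted p = 0.0182).

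Timp2, which blocks metalloproteinases and also takes part in the activation of the Mmp2 precursor, had values of 98.7, 86.3, 85.2 and 76.4 FPKM in aPD1_lef, of 42.0, 39.5, 47.0 and 29.9 in aPD1_veh, and of 40.5, 59.4 and 55.7 in IgG_lef. Every aPD1_lef library was above every other library. In aPD1_lef it was above aPD1_veh by a log2 change of 1.12 ± 0.157 (adjusted p = 0.00106). Timp3, which binds to the matrix and also inhibits ADAM and ADAMTS proteases, was at 178, 131, 123 and 130.0 FPKM in aPD1_lef and at 87.6, 102, 128 and 80.9 in aPD1_veh, so the groups overlapped. It rose by 0.50 ± 0.160 (adjusted p = 0.0353), with IgG_lef between 108 and 132 FPKM. Its call was lost when any of aPD1_lef replicate 1 or aPD1_veh replicates 1, 2 and 4 was left out, with adjusted p between 0.0685 and 0.104.

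Timp4, the inhibitor known for its expression in the heart, went the other way. Its values were 11.6, 13.7, 12.9 and 9.59 FPKM in aPD1_lef, 24.8, 25.3, 33.5 and 30.6 in aPD1_veh, and 24.8, 27.3 and 17.4 in IgG_lef, so all aPD1_lef libraries lay below all others. It fell by 1.19 on the log2 scale (SE 0.158, adjusted p = 0.000796). Summed markers of cardiomyocytes were lower too, at 7926 to 22927 FPKM in aPD1_lef against 22416 to 31279 in aPD1_veh. Of these 7 markers 3 were lower by the test, where 14.3% of all genes tested were. Their part in the level of Timp4 was not tested. In bulk tissue, fewer cells of a type and less RNA per cell cannot be told apart.

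**Figure D2:**
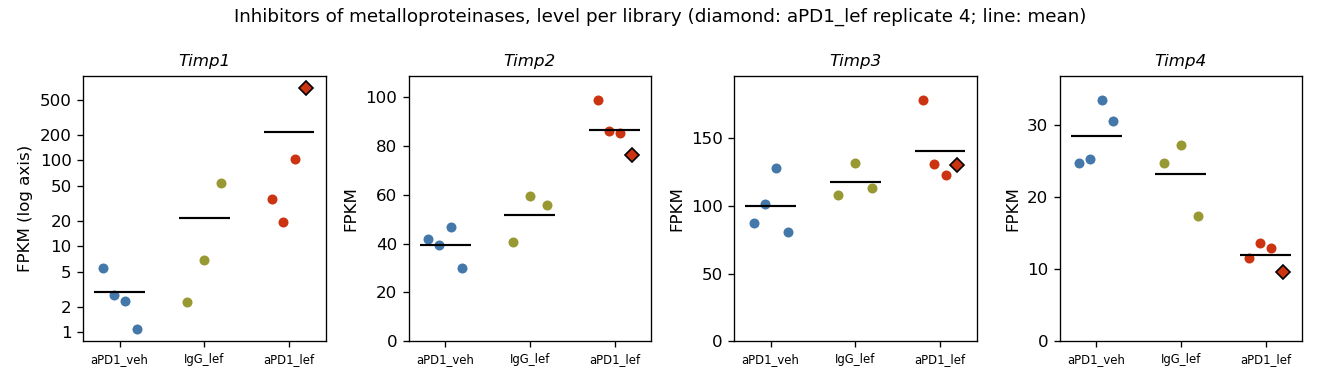
FPKM of the 4 Timp genes in each library, by group, with a line at the group mean and a diamond for aPD1_lef replicate 4; the axis of Timp1 is logarithmic and the others are linear from 0. Timp1 and Timp2 are higher in every aPD1_lef library than in any aPD1_veh library, Timp3 overlaps, and Timp4 is lower in every aPD1_lef library.

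The sum of the 4 Timp genes was 250 to 906 FPKM in aPD1_lef, 142.5 to 211 in aPD1_veh and 176 to 240.5 in IgG_lef. The sum of the Mmp genes was 140.2 to 284 FPKM, 66.2 to 75.0 and 73.3 to 108 in the same order. The ratio of the 2 sums overlapped between the groups, at 1.78 to 3.19 in aPD1_lef, 2.11 to 3.18 in aPD1_veh and 2.24 to 2.40 in IgG_lef. The make-up of each sum differed more: Timp1 gave 7.64% to 76.2% of the Timp sum in aPD1_lef and 0.764% to 3.53% in aPD1_veh. Mmp2 gave 31.3% to 58.5% of the Mmp sum in aPD1_lef and 25.0% to 26.9% in aPD1_veh.

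**Figure D3:**
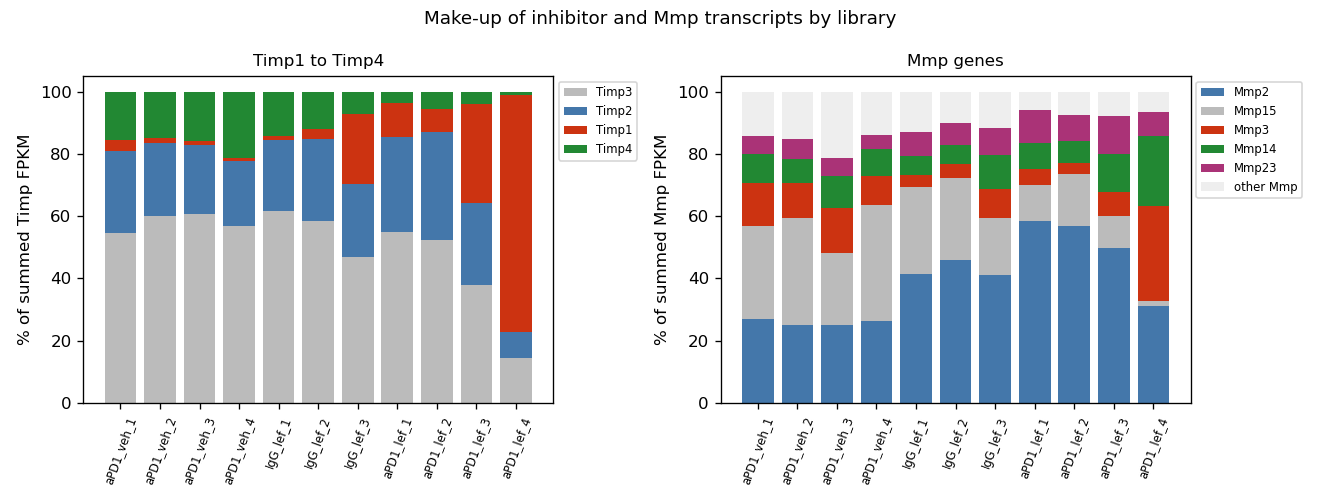
Share of each gene in the summed FPKM of the 4 Timp genes (left) and of the Mmp genes (right), as stacked bars in percent with 1 bar for each library. The share of Timp1 reaches 76.2% in aPD1_lef replicate 4, and the share of Mmp15 is 23.0% to 37.2% in aPD1_veh and 1.42% to 16.7% in aPD1_lef.

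The promoters of the inhibitors are shown as a description of their sequence. Each line is the last 120 bases before the RefSeq start on GRCm38.p6, read 5′ to 3′ on the strand of the gene, with capitals at GGGCGG, the letters of an Sp1 site, on either strand. The stretches lie at chrX:20870046-20870165 (plus strand), chr11:118355412-118355531 (minus), chr10:86300292-86300411 (plus) and chr6:115252206-115252325 (minus).
Timp1: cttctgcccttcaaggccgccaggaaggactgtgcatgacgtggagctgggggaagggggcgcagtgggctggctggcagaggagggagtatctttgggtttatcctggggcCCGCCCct
Timp2: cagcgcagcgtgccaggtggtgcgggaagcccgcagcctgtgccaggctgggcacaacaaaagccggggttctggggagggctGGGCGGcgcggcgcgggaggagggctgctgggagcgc
Timp3: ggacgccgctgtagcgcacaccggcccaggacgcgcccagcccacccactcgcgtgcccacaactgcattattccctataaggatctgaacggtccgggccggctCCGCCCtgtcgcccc
Timp4: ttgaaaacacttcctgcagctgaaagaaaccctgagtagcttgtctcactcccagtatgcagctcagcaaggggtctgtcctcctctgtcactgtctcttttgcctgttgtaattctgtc
Those letters stood in the 250 bases before the start of Timp1, Timp2 and Timp3 and not of Timp4, and 32.7% of the 32851 mouse promoters of that length hold them. Of the 32 members with a promoter in the table, 16 hold them. Among the 16 are Adamts2 and Mmp14, which rose in aPD1_lef against aPD1_veh, and Mmp11, Mmp15 and Mmp28, which did not pass. Mmp23 rose and does not hold them. Whether the letters bear on the direction of change was not tested. A match is a description of letters, not a binding site.

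The transcripts of the inhibitors share places with the synapsin genes. Timp1 (X:20870166-20874737) lies within Syn1, Timp3 (10:86300412-86349505) within Syn3 and Timp4 (6:115244444-115252205) within Syn2, each on the opposite strand. Syn1 was at 0.0501 to 0.299 FPKM, Syn3 at 0.116 to 0.249 and Syn2 at 0.902 to 3.41. In aPD1_lef replicate 4 Syn2 was at 3.41 FPKM beside 9.59 for Timp4, and the exons of the pair share 90 bases. No source used here says whether the counting took the strand into account.

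Among the gelatinases, which cut denatured collagen, the 2 members moved in opposite directions in aPD1_lef against aPD1_veh. Mmp2 (8:92827290-92853421), the gelatinase of fibroblasts, was at 98.9, 79.6, 72.8 and 88.9 FPKM in aPD1_lef, at 20.2, 18.0, 16.6 and 17.8 in aPD1_veh, and at 30.3, 45.4 and 44.1 in IgG_lef. The 3 groups did not overlap, and Mmp2 had the smallest adjusted p of the members in this comparison. It rose by 2.16 ± 0.139 (adjusted p = 2.01e-05), a ratio of means of 4.69. Mmp9, the gelatinase stored in neutrophil granules, was at 0.0319, 0.0687, 0.137 and 0.589 FPKM in aPD1_lef, at 1.21, 1.15, 1.25 and 1.19 in aPD1_veh, and at 0.124, 0.310 and 0.411 in IgG_lef. All 4 aPD1_veh libraries lay above all others. It fell by 0.89 on the log2 scale (SE 0.140, adjusted p = 0.00184, and 0.00315 with no filter). The ratio of means was 0.172, and 0.0661 without aPD1_lef replicate 4.

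Markers of neutrophils moved with Mmp9 only in part. The 11 neutrophil genes other than members summed to 3.08 to 51.9 FPKM in aPD1_lef, 48.8 to 106 in aPD1_veh and 3.27 to 15.6 in IgG_lef, and aPD1_lef replicate 4 gave the 51.9. Only 4 of the 12 neutrophil genes listed passed the filter. Of these, S100a8 and S100a9 fell in aPD1_lef against aPD1_veh, where 14.3% of all genes tested were lower. In aPD1_veh against IgG_lef, where Mmp9 was higher, 0 of the 4 passed. Mpo and Elane were at 0 in all aPD1_lef and aPD1_veh libraries. Mmp8, the collagenase of neutrophils, was too low for the test, at 0.0210 to 1.11 FPKM in aPD1_lef and 0.321 to 1.20 in aPD1_veh. The part of neutrophils in the Mmp9 level was not tested.

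Markers of fibroblasts rose with Mmp2 in aPD1_lef against aPD1_veh. Of 8 fibroblast genes 6 rose, where 18.2% of all genes tested did. The 8 summed to 1691 to 2283 FPKM in aPD1_lef, 924 to 1242 in aPD1_veh and 1316 to 1707 in IgG_lef. Of 10 genes of activated fibroblasts 9 rose. The 10 summed to 481 to 1652 FPKM in aPD1_lef, 46.0 to 93.3 in aPD1_veh and 85.8 to 288 in IgG_lef. In aPD1_veh against IgG_lef, where Mmp2 fell, 1 gene of each list fell, against 0.925% of all genes. In aPD1_lef against IgG_lef 2 of the 8 and 6 of the 10 rose, against 5.15% of all genes. Among the 10, Cthrc1 and Tnc reached 1 FPKM outside aPD1_lef only in IgG_lef replicate 3. They entered the test through aPD1_lef, so the counts of the activated list are descriptions only. Macrophage and endothelial lists had no gene past the threshold, of 9 and 7 tested. The part of fibroblast markers in the Mmp2 level was not tested.

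Of the collagenases (Mmp1a, Mmp1b, Mmp8 and Mmp13), none was tested, as all were too low. Mmp13 was at 0.0552 to 0.440 FPKM in aPD1_lef, 0.248 to 0.569 in aPD1_veh and 0.628 to 0.859 in IgG_lef. Of the stromelysins, which cut proteoglycans and other matrix proteins, Mmp3 was at 8.88, 4.99, 11.1 and 86.5 FPKM in aPD1_lef against 6.32 to 10.4 in aPD1_veh, and did not pass (log2 change 0.74, adjusted p = 0.426). Mmp11 had means of 2.88 ± 0.543 and 3.11 ± 0.531 FPKM (SD, n = 4 each) and did not pass. Mmp12, the macrophage elastase, was at 0.203 to 2.00 FPKM in aPD1_lef and 0.116 to 0.283 in aPD1_veh.

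Of the 6 membrane-type metalloproteinases, which are anchored at the cell surface, 3 were tested. Mmp14 (14:54431598-54442456), which activates the Mmp2 precursor, was at 14.0, 9.90, 17.7 and 64.4 FPKM in aPD1_lef, at 6.88, 5.49, 6.81 and 5.67 in aPD1_veh, and at 4.56, 6.02 and 11.5 in IgG_lef. No aPD1_lef library overlapped aPD1_veh. It rose by 1.56 ± 0.466 (adjusted p = 0.0278), with a ratio of means of 4.26 that became 2.23 without aPD1_lef replicate 4. The call was lost without aPD1_lef replicate 3 or any of aPD1_veh replicates 2, 3 and 4, with adjusted p from 0.0521 to 0.0675. Mmp15 was at 19.5, 23.5, 14.9 and 4.05 FPKM in aPD1_lef against 22.5, 24.6, 15.3 and 25.1, and it did not pass (log2 change -0.67, adjusted p = 0.232). Mmp17 had means of 1.14 and 1.20 FPKM.

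Of the other metalloproteinases, Mmp23, a short enzyme held at the membrane, was at 17.9, 11.6, 17.8 and 22.1 FPKM in aPD1_lef, at 4.27, 4.51, 3.84 and 3.07 in aPD1_veh, and at 5.69, 7.00 and 9.52 in IgG_lef. The 3 groups did not overlap. It rose by 1.88 ± 0.193 (adjusted p = 0.00021). Mmp19 had means of 3.86 ± 3.13 and 1.54 ± 0.543 FPKM and Mmp28 of 2.18 ± 0.750 and 2.54 ± 0.762, and neither passed. Mmp2 and Mmp23 were the only tested members with aPD1_veh below IgG_lef below aPD1_lef and no overlap, 2 of 22, against 1.54% of all genes tested. The reverse order without overlap held for 0 members, against 2.55% of all genes tested.

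Among the ADAMTS proteases, Adamts2, which removes the N-propeptide of fibrillar procollagens, was at 19.9, 16.3, 31.8 and 39.9 FPKM in aPD1_lef, at 4.60, 3.34, 3.79 and 2.78 in aPD1_veh, and at 4.45, 6.50 and 11.3 in IgG_lef. Every aPD1_lef library lay above every other library. It rose by 2.53 ± 0.299 (adjusted p = 0.000443), a ratio of means of 7.44. The other procollagen N-proteinases, Adamts3 and Adamts14, were too low for the test.

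Of the 7 proteoglycanases 5 were tested and 2 rose. Adamts8 was at 3.37, 1.76, 6.67 and 4.74 FPKM in aPD1_lef, at 0.352, 0.202, 0.272 and 0.244 in aPD1_veh, and at 0.225, 0.657 and 0.602 in IgG_lef. It rose by 1.92 ± 0.256 (adjusted p = 0.000834, and 0.00204 with no filter), and its ratio of means was 15.4. Adamts15, a versican-cutting enzyme, was at 2.31, 2.54, 2.09 and 2.04 FPKM in aPD1_lef against 1.38, 1.45, 1.72 and 1.23, and rose by 0.41 ± 0.0951 (adjusted p = 0.0101). Both genes separated the groups without overlap. Adamts1, Adamts5 and Adamts9 did not pass, with adjusted p of 0.135, 0.357 and 0.623. Adamts1 was at 21.0, 13.4, 20.8 and 111 FPKM in aPD1_lef, and at 11.2 to 18.3 in aPD1_veh, and Adamts9 at 3.54 to 27.5 against 4.28 to 6.46.

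Adamts10, which binds fibrillin microfibrils, was at 9.60, 10.2, 7.75 and 7.06 FPKM in aPD1_lef, at 5.36, 4.86, 5.78 and 3.94 in aPD1_veh, and at 6.50, 7.79 and 6.30 in IgG_lef. It rose by 0.69 ± 0.134 (adjusted p = 0.00486), with no overlap between aPD1_lef and aPD1_veh. Adamts7, which cuts the cartilage oligomeric matrix protein, was at 3.11, 3.77, 2.27 and 2.59 FPKM in aPD1_lef, at 3.80, 4.46, 4.39 and 3.52 in aPD1_veh, and at 3.43, 4.49 and 3.81 in IgG_lef. The groups overlapped. It fell by 0.37 on the log2 scale (SE 0.129, adjusted p = 0.0493), close to the threshold, and the call was lost in 10 of 11 fits that left out 1 library, with adjusted p from 0.0564 to 0.128; only without aPD1_lef replicate 2 was it kept.

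**Figure D4:**
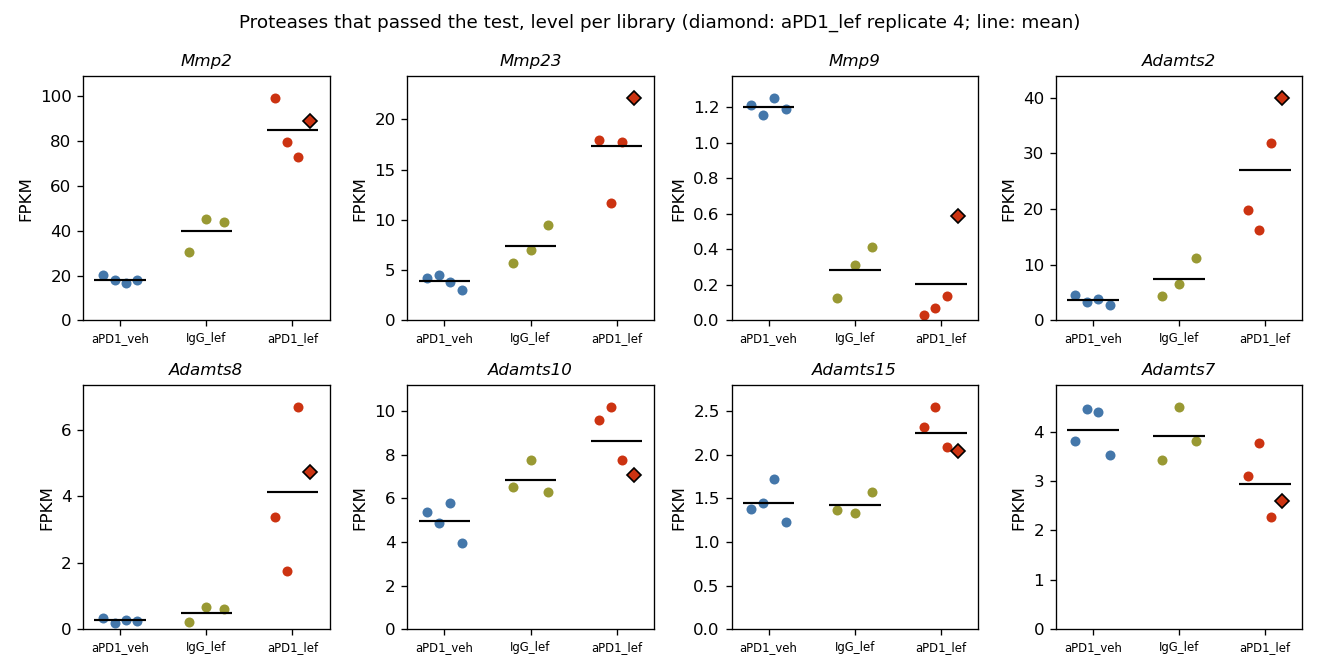
FPKM of 8 of the 9 proteases past the test in aPD1_lef against aPD1_veh, by library, on linear axes from 0 with a line at the group mean and a diamond for aPD1_lef replicate 4. Mmp2 and Mmp23 are lowest in aPD1_veh and highest in aPD1_lef, with IgG_lef between them and no overlap, and Mmp9 is highest in aPD1_veh.

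Among the 19 members above 0 somewhere but too low for the test, 6 were higher in every aPD1_lef library than in every aPD1_veh library (Adamts4, Adamts6, Adamts12, Adamts16, Adamts20 and Mmp24), against 5.67% of all genes of that kind. None of the 19 was lower in this way (0 of 19, against 3.17%). Adamts20 was at 0.490, 0.207, 0.380 and 0.485 FPKM in aPD1_lef against 0.0811, 0.0670, 0.0875 and 0.0238. Adamts16 was listed at 0 in all 4 aPD1_veh and all 3 IgG_lef libraries and was at 0.0111 to 0.148 FPKM in aPD1_lef. Adamts4, an aggrecanase, was at 0.216, 0.160, 1.10 and 19.3 FPKM in aPD1_lef and at 0.0581 to 0.145 in aPD1_veh, so its level rested on replicate 4.

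Replicate 4 of aPD1_lef was often the highest library, over all genes as well as among the members. It was the highest of the 11 libraries for 8 of the 22 tested members (36.4%), against 26.5% of all genes tested. The count is a description and not a trait of the members alone. Fos, of the AP-1 transcription factor, was at 49.0 FPKM in aPD1_lef replicate 4 and at 0.807 to 3.89 in the other libraries. Fosl2 was at 73.6 FPKM there against 3.40 to 12.1, and Junb at 164 against 7.41 to 29.0. These genes were picked from a list of 12 transcription factors for their level in that library. Elk3, of the same list, was at 13.3 FPKM there, within the 12.2 to 18.7 of the other libraries. The part of these factors in the members' values was not tested.

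**Figure D5:**
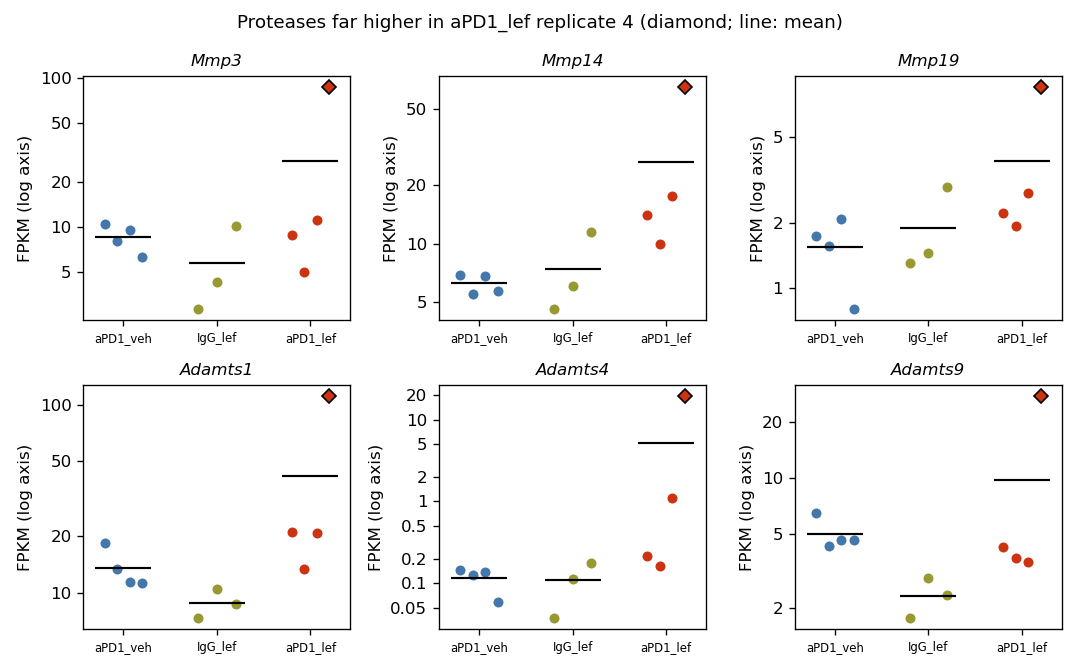
FPKM of 6 proteases by library on logarithmic axes, with a line at the group mean and a diamond for aPD1_lef replicate 4. Mmp3, Mmp14, Mmp19, Adamts1, Adamts4 and Adamts9 are each highest in that library, from 8.52 FPKM for Mmp19 to 111 for Adamts1.

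In all, 10 of the Mmp genes stand side by side on mouse chromosome 9, between positions 7272514 and 7699585 (Mmp13, Mmp12, Mmp1b, Mmp3, Mmp1a, Mmp10, Mmp8, Mmp27, Mmp20 and Mmp7), a span of 427 kb. Of these only Mmp3 passed the filter. Promoters of 3 are shown because letters of an AP-1 site mark this cluster among the members. Each line holds the last 120 bases before a RefSeq start on GRCm38.p6 (plus strand), at chr9:7272394-7272513, chr9:7445702-7445821 and chr9:7502222-7502341, with TGANTCA in capitals.
Mmp13: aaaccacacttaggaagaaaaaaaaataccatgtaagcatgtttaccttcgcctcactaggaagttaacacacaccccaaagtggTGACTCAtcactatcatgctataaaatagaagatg
Mmp3: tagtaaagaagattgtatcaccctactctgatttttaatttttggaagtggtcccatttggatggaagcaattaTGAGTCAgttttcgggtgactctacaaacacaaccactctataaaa
Mmp10: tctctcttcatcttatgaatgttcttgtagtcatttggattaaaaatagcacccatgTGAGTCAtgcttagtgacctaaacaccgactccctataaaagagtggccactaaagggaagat
TGANTCA, searched on both strands, stood in the 250 bases before a start of 8 of the 10 cluster genes and of 0 of the 22 other members with a promoter in the table, and in 6.75% of all promoters. Mmp12 has 2 starts in the table, and the letters stood before the second, inside the gene, and not before the first. The promoters with it held 37.2% to 45.6% G and C, and the others 38.8% to 79.2%. Apart from Mmp3, the highest levels in the cluster were those of Mmp12 (up to 2.00 FPKM) and Mmp8 (up to 1.20 FPKM). The letters say nothing of whether the factor was bound.

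In aPD1_veh against IgG_lef, 1 tested member rose and 1 fell, with 1.17% of all genes tested past the threshold (0.242% higher and 0.925% lower). Mmp9 was higher in aPD1_veh by 0.79 ± 0.152 on the log2 scale (adjusted p = 0.0334), a ratio of means of 4.26, and did not pass with no filter (adjusted p = 0.0535). Mmp2 was lower by 1.08 (SE 0.150, adjusted p = 0.00846), a ratio of means of 0.455. The median change of the tested members was -0.07, against 0.01 over all genes tested, and 20 did not pass. Groups did not overlap for Adamts1, Adamts9 and Mmp9 with aPD1_veh higher, and for Mmp2, Mmp23 and Adamts10 with aPD1_veh lower, 3 of 22 each, where 11.1% and 7.91% of all genes did so. Of the 19 members too low for the test, Mmp8 was higher without overlap (against 2.6% of such genes) and Adamts6, Mmp13 and Mmp16 were lower (against 3.07%). The Mmp9 call was lost in 8 of 11 fits that left out 1 library (adjusted p 0.0576 to 0.130), and the Mmp2 call without IgG_lef replicate 3 (adjusted p = 0.0575). Without aPD1_lef replicate 4, 2 members rose and 1 fell, with Adamts9 added (adjusted p = 0.0103 by limma). Of all genes tested, 1.82% were then higher and 2.17% lower, against 0.242% and 0.925% with that library.

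In aPD1_lef against IgG_lef, 6 tested members rose and 1 fell, with 7.16% of all genes tested past the threshold (5.15% higher and 2.01% lower). Higher were Adamts2 (log2 change 1.73 ± 0.323 SE), Adamts8 (1.70 ± 0.277, adjusted p = 0.0186, and 0.0351 with no filter), Mmp23 (1.12 ± 0.208), Mmp2 (1.09 ± 0.150), Timp2 (0.74 ± 0.169) and Adamts15 (0.42 ± 0.103), and Timp4 was lower (-0.89 ± 0.170). Their adjusted p ran from 0.00981 for Mmp2 to 0.0396 for Adamts15. The median was 0.52, against 0.03 over all genes tested. Groups did not overlap for 9 members with aPD1_lef higher and for 1 with it lower, against 15.3% and 11.4% of all genes. Of the 19 members too low for the test, Adamts16 and Adamts20 were higher without overlap (against 4.16% of such genes) and Mmp13 and Mmp27 were lower (against 2.98%). With only the 2 groups fitted, 0 members and 0 of all 12005 genes passed by limma. At an unadjusted p under 0.05 there were 10 of the 22 members and 2670 of all 12005 genes. Timp1 had a log2 change of 2.93 ± 1.17 and did not pass (adjusted p = 0.124). Without aPD1_lef replicate 4, 8 members rose and 1 fell. Of all genes tested, 7.31% were then higher and 3.68% lower, against 5.15% and 2.01% with that library. All 7 calls were lost without IgG_lef replicate 1, with adjusted p from 0.0640 for Mmp2 to 0.173 for Adamts15. Over the 11 fits that left out 1 library, Adamts15 was lost in 8, Timp2 in 6, Adamts2, Mmp23 and Timp4 in 3 each and Mmp2 and Adamts8 in 1 each. Adamts15 and Timp2 were also lost with no filter (adjusted p = 0.0677 and 0.0666). Since the 3 comparisons share groups, their values are not independent.

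Lists of genes that work with the members were counted in the same fit of aPD1_lef against aPD1_veh. Over all genes tested 18.2% rose and 14.3% fell there, with a median log2 change of 0.04. Of 12 tested collagens and proteoglycans, the substrates of these enzymes, all 12 rose, with a median log2 change of 2.85, and Col6a1 had means of 88.6 ± 30.5 and 13.9 ± 2.50 FPKM. Of 13 tested ADAMTS-like and protease-regulating matrix proteins 8 rose and 1 fell (median 0.51). Adamtsl2, an ADAMTS-like protein without protease activity, was at 29.6 ± 4.27 against 2.79 ± 0.936 FPKM, and Bsg, an inducer of metalloproteinases, fell from 1140.2 ± 74.9 to 803 ± 74.9. Reck, a membrane-anchored inhibitor of metalloproteinases, rose from 2.22 ± 0.446 to 4.81 ± 0.942 FPKM.

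Of 5 ADAM sheddases tested, 3 rose (median 0.61). Of 8 astacin and serine proteases 4 rose and 1 fell (median 0.43), among them Bmp1, which removes the C-propeptide of procollagens, at 22.9 ± 10.3 against 6.89 ± 1.07 FPKM. Pcsk5, among the 8, reached 1 FPKM only in the 4 aPD1_lef libraries. It entered the test through that group, so the counts and median of this list are descriptions only. Of 13 cathepsins and cystatins 4 rose and 1 fell (median 0.42), and Ctsk, a collagen-cutting cathepsin, was at 20.2 ± 5.34 against 3.21 ± 0.475 FPKM. Of 9 AP-1, Ets and Runx transcription factors 2 rose, Runx1 and Ets1 (median 0.46), close to the 18.2% of all genes that rose. Outside aPD1_lef, Runx1 reached 1 FPKM only in IgG_lef replicate 3 (1.01 FPKM), so it too entered the test through aPD1_lef. In aPD1_veh against IgG_lef, Adamtsl2 was the only gene of these lists to change, where 1.17% of all genes passed. It fell, from 8.23 ± 2.33 FPKM in IgG_lef. In aPD1_lef against IgG_lef, where 5.15% of all genes rose, 8 of 12 substrates and 6 of 13 ADAMTS-like and regulating proteins rose. Also higher were 3 of 13 cathepsins and cystatins and 2 of 8 astacin and serine proteases. The same held for 1 of 5 ADAM sheddases and 2 of 9 transcription factors. None of these lists had a gene that fell, where 2.01% of all genes did.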

How the data were processed

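The source was a single deposited table of mouse heart RNA sequencing with 34714 genes. Per the labels' protocols, the steps before sequencing were TRIzol extraction and a NEBNext Ultra library kit. Per the submitters' processing notes, HISAT2, DESeq2 and mm10 were used, and neither roles nor versions are given. The deposited values were read as FPKM computed by the authors. The unit is inferred, as values were not whole and decreased with exon length. On log2 scales, this slope was -0.51 ± 0.0283 SE over 1080 genes above 0 in only 1 library. The slope shows a dependence on length and does not fix the unit. A TPM table with some genes left out cannot be told apart from it. Read counts could not be recovered (12.0% to 13.5% of values came within 0.05 of whole steps, where chance gives 10%), so depth is unknown and no counting interval or floor is given. Of 12 columns of values, 1 was not used: it resembles the name of the fourth IgG_lef sample, with digits in another order, and that sample is not analysed here.

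Genes with 1 FPKM or more in at least 4 libraries (12005) were analysed as log2(FPKM + 1), which understates changes of low genes, in 1 model of 3 groups over 11 libraries with limma 3.58.1 (lmFit, then trended and robust eBayes; R 4.3.3, statmod 1.5.0). Benjamini-Hochberg adjustment ran over all tested genes in each comparison, at a threshold of 0.05, and the design's count test was not used because the table holds no counts. Python 3.11.15, pandas 2.3.3, NumPy 2.4.6 and matplotlib 3.10.9 served for tables and plots. The fit was tested on simulated data. Coordinates and promoters are from RefSeq GRCm38.p6, and 32 members matched the promoter table; overlaps are from GENCODE M21. Values in each library are given for members past the test, group means or ranges for the others, and for other lists up to 4 genes with the smallest p. Apart from that rule, Fos, Fosl2, Junb and Elk3 are named for their level in aPD1_lef replicate 4. One other gene list is not reported here. The members, lists and tests were chosen with earlier results of these data known. Alternatives changed the scaling, pseudocount, filter, variance model, groups fitted and libraries, and added the replicate number as a block. Atrial, cartilage, epicardial, mast cell and T cell marker lists had 0, 1, 0, 0 and 0 genes higher in aPD1_lef against aPD1_veh, of 2, 2, 3, 1 and 0 tested. The smooth muscle and pericyte list had 2 higher and 1 lower of 7. Over all genes tested 18.2% were higher and 14.3% lower.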

Additional observations from a re-analysis of the deposited data

Results flagged for a closer look

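Within each group of 4 libraries, a library was singled out where its distance to the nearest other library, divided by the range of the group, was above Dixon's 95% critical value. Of 80 such groups of values 15 were singled out, and chance gives about 1 in 20 where values are spread. In 5 of the 15 (Adamts13, Adamts18 in 2 groups, Mmp21 and Mmp24) the other 3 libraries were at 0, where any value above 0 is singled out and that rate does not apply. In 9 of the 15 the library was aPD1_lef replicate 4, in each case the highest.

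The aPD1_lef replicate 4 values were 690.336 FPKM for Timp1, 110.837 for Adamts1, 86.4803 for Mmp3, 64.3908 for Mmp14, 27.4831 for Adamts9, 19.2541 for Adamts4, 8.51996 for Mmp19, 1.10905 for Mmp8 and 0.007668 for Adamts18. In the other aPD1_lef libraries these genes reached at most 103 FPKM (Timp1), 21.0 (Adamts1), 11.1 (Mmp3), 17.7 (Mmp14), 4.24 (Adamts9), 1.10 (Adamts4), 2.75 (Mmp19), 0.0793 (Mmp8) and 0 (Adamts18). Timp1 and Mmp14 passed the test in aPD1_lef against aPD1_veh with and without that library, and Adamts1, Adamts9, Mmp3 and Mmp19 did not pass with it.

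Timp3 was highest in aPD1_lef replicate 1, at 177.764 FPKM against 123 to 131 in the other 3 libraries, and its call in aPD1_lef against aPD1_veh was lost without it. Adamts9 was highest in aPD1_veh replicate 1, at 6.46263 FPKM against 4.28 to 4.64. The rest were single libraries above 0 in groups otherwise at 0: Adamts13 at 0.009871 FPKM in aPD1_lef replicate 2, Adamts18 at 0.005214 in aPD1_veh replicate 1, Mmp21 at 0.042031 in aPD1_veh replicate 3 and Mmp24 at 0.024713 in aPD1_veh replicate 4.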

How the results depend on the processing

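No called change reversed under the alternatives run. In aPD1_lef against aPD1_veh, 13 members were called, and 12 with the replicate block (9 higher and 3 lower, Timp3 lost). When 1 library was left out 10 to 14 were called, with 11% to 19.7% of all genes higher and 8.94% to 16.5% lower. Timp3 was also lost with no filter and with only the 2 groups fitted, Adamts7 in both and after scaling to one total, and Mmp14 with no filter. Without the libraries with Myl7 above 10, only replicates 3 and 4 of aPD1_lef were left, the latter the library that stood apart. Adamts15 and Timp3 were then lost, and Adamts1, Mmp15 (lower) and Mmp19 passed. Adamts1 was at 20.8 and 111 FPKM in those 2 libraries, Mmp15 at 14.9 and 4.05 and Mmp19 at 2.75 and 8.52. Over all genes tested 18.7% were then higher and 18% lower, against 18.2% and 14.3%. In aPD1_veh against IgG_lef the 2 called became 1 with every library scaled to one total and with a pseudocount of 0.1. They also became 1 with no filter and without the libraries with Myl7 above 10. They became 4 with only the 2 groups fitted, where 1.55% of all genes were higher and 1.82% lower, against 0.242% and 0.925%. They became 0 to 3 when 1 library was left out, with 0% to 1.82% of all genes higher and 0.025% to 2.17% lower. With the replicate block 0 were called by limma, with 5 of 22 members and 1494 of all 12005 genes at an unadjusted p under 0.05. In aPD1_lef against IgG_lef the 7 called became 0 with only the 2 groups fitted and 0 with the replicate block, each with 0 of all 12005 genes called. At an unadjusted p under 0.05 by limma there were 10 of 22 members and 2670 of all genes with only the 2 groups. With the replicate block there were 12 of 22 and 2830. When 1 library was left out, 0 to 10 members were called, with 0.0167% to 11.3% of all genes higher and 0% to 8.08% lower. Without IgG_lef replicate 1, 9 of 22 members and 2316 of all genes had an unadjusted p under 0.05 by limma. In aPD1_veh against IgG_lef without IgG_lef replicate 3, 4 of 22 members and 830 of all genes did. Correlations of same-numbered libraries, with group means taken out, were -0.28 to 0.19 in aPD1_lef against aPD1_veh. They were -0.29 to 0.17 in aPD1_veh against IgG_lef and -0.02 to 0.18 in aPD1_lef against IgG_lef. Libraries with different numbers were not compared and the groups are small, so these values cannot decide whether the numbers mark pairs. Scaling to one total moved the median log2 change of all genes in aPD1_lef against aPD1_veh from 0.04 to 0.17, with 28.9% of genes higher and 9.36% lower against 18.2% and 14.3%; quantile normalization gave 14.9% and 18.4%. The members' calls then numbered 10 higher and 2 lower, and 10 and 3. In aPD1_lef against IgG_lef quantile normalization gave 5.43% and 4.48% against 5.15% and 2.01%. The causes of these changes were not tested. The unknown depth limits what can be said of the members below the filter.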
